A study of Homo sapiens with 6 samples.

Results

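The tropomyosin genes TPM1, TPM2, TPM3 and TPM4 were described transcript by transcript, as 4 of the 29385 annotated genes in an RNA sequencing table of xenograft samples. They were found as the rows of the table whose symbol was 1 of these 4 names. That gave 74 of the 131516 transcript rows, 27 of TPM1, 12 of TPM2, 16 of TPM3 and 19 of TPM4. The genes were picked with the differences between treated and control samples already known, so their values in that contrast are a description and carry no test.

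Xenografts of HT-29, an established line of human colorectal cancer cells labelled as wild type, were sequenced at day 15. The control group of 3 samples had no treatment, and the ESV group of 3 samples had 60 mJ extracorporeal shock waves, a treatment with pressure pulses from an external source. All 6 samples carry 1 batch label, and the labels do not state whether replicates were separate animals, so any spread between them may be partly technical. The comparison asks how the treated xenografts differ from untreated ones.

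Tropomyosins are coiled-coil proteins that join head to tail along actin filaments and control which other proteins, such as myosin or cofilin, reach the filament. Each gene makes several proteins. Transcripts that start at an upstream promoter encode long forms, found on stress fibres and muscle filaments, and transcripts of some of these genes that start at an internal promoter encode short forms, typical of cells other than muscle. Further along the gene, pairs of exons that replace each other and alternative last exons change the surfaces that bind actin and other partners. Long forms are often low in transformed cells, in which short forms remain.

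Levels are FPKM, fragments per kilobase of transcript scaled to the depth of the library, and the share of a transcript is its percentage of the FPKM summed over all transcripts of its gene in the same sample. The depth of each library was estimated from the values themselves, as the depth that turns them into whole reads. It was 48298319 to 58539489 reads. Values multiplied by transcript length and this depth were whole numbers of reads in 99.64 to 99.69% of cases (within 0.05, over values worth 0.5 to 100 reads). The levels were therefore taken as whole reads per transcript, either placed singly or rounded from estimates. Of the 74 transcripts, 32 have no base that another transcript of their gene lacks. Among these are TPM1-206, TPM1-208, TPM1-220, TPM2-201, TPM2-203, TPM4-219, TPM4-222, TPM3-205 and TPM3-212, which lead their genes in at least 1 library. For them the level rests on how reads in shared exons were placed. Whether that placement differed between libraries was not tested.

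The human transcripts measured were epithelial by their markers. The summed level of 9 genes of colon epithelium was 6078 to 7287 FPKM in the controls and 6637 to 8832 FPKM in the ESV samples. The summed level of the 9 listed smooth muscle and pericyte genes found in the table was 24.0 to 25.9 FPKM and 22.7 to 26.9 FPKM, that of 9 skeletal muscle genes 5.71 to 5.99 FPKM and 4.93 to 12.6 FPKM, and that of 6 fibroblast genes 10.9 to 26.6 FPKM and 4.80 to 16.0 FPKM. Endothelial and blood markers stayed under 3 FPKM in sum. SMTN alone gave 19.8 to 21.0 FPKM of the smooth muscle sum in the controls and 18.6 to 23.2 FPKM in the ESV samples. The levels are of human transcripts, so these sums do not measure cells of the host and cannot show how many there were. In such bulk samples fewer cells of a type and less RNA per cell cannot be told apart.

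The coding exons at which the results below turn are shown for reference, from GENCODE 29 on GRCh38, each read 5′ to 3′ on the strand of the gene, which is the plus strand for TPM1 and TPM4. In TPM1 and TPM4 the long forms start with an upstream first coding exon and the short forms with a downstream one. Some other coding transcripts share these exons, such as TPM1-226 of 275 residues, and forms were classed by coding length. The upstream exons lie at chr15:63042830-63042943 (TPM1) and chr19:16067625-16067738 (TPM4), and the downstream ones at chr15:63048576-63048707 (TPM1) and chr19:16076566-16076697 (TPM4). Capitals mark the start codon.
TPM1 upstream first coding exon: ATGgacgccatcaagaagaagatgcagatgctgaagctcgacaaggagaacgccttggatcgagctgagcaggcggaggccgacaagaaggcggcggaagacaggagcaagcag
TPM4 upstream first coding exon: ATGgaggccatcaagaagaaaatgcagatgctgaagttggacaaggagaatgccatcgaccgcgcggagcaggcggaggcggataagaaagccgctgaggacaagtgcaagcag
TPM1 downstream first coding exon: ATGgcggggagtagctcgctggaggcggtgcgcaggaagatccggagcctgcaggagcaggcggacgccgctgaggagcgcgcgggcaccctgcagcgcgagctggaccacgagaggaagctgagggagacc
TPM4 downstream first coding exon: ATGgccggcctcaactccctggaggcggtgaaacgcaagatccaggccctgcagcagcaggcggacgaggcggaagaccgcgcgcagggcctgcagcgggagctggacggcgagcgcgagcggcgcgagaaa

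The upstream exons of TPM1 and TPM4 have the same base at 84.2% of their 114 positions, and the downstream exons at 72.0% of their 132 positions. The internal exons that replace each other in TPM1 are 76 bases long and lie at chr15:63061198-63061273 (exon A) and chr15:63061713-63061788 (exon B). They share 43 bases, and capitals mark the 33 at which they differ.
TPM1 internal exon A: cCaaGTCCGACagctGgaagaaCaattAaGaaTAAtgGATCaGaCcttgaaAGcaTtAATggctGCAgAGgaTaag
TPM1 internal exon B: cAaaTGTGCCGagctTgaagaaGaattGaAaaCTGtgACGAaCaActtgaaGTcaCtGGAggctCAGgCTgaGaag

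The last coding exon of TPM1 is chosen from several, of which the middle one lies at chr15:63069870-63069940 (exon ii) and the most downstream at chr15:63071090-63071169 (exon iii), positions that leave out the stop codon marked in capitals.
TPM1 last coding exon ii: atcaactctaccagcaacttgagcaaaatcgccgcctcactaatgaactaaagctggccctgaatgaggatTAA
TPM1 last coding exon iii: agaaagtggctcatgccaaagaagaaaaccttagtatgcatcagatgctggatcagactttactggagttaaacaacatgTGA

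The 4 genes were all expressed, and their summed levels overlapped between the groups. Together they gave 461.8 to 559.6 FPKM per library. TPM1, a gene of muscle and non-muscle tropomyosins at chr15:63042632-63071912, gave 160.8, 182.4 and 160.4 FPKM in controls 1 to 3 and 178.0, 219.2 and 235.5 FPKM in ESV 1 to 3. ESV 1 lay below control 2, and the other 2 ESV libraries lay above all controls. The means were 168 ± 12.6 FPKM and 211 ± 29.7 FPKM (SD, n = 3 each), a log2 difference of 0.32 (limma SE 0.15) on the log2(FPKM + 1) scale.

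TPM4, the gene of a tropomyosin widespread in non-muscle cells and at chr19:16067021-16103005, gave 141.0, 160.1 and 184.6 FPKM in the controls and 150.4, 183.4 and 129.0 FPKM in the ESV samples. TPM3, known for a slow muscle long form and for widespread short forms and lying at chr1:154155304-154192211 on the minus strand, gave 113.9, 149.6 and 114.0 FPKM and then 116.4, 116.9 and 96.9 FPKM. TPM2, the gene of beta-tropomyosin at chr9:35681992-35690121 on the minus strand, gave 46.1, 39.2 and 43.1 FPKM and then 55.6, 40.1 and 72.1 FPKM. Each of these groups overlapped, with ESV 3 the lowest library for TPM3 and TPM4 and the highest for TPM2. The log2 differences were -0.08 (SE 0.17) for TPM4, -0.19 (SE 0.16) for TPM3 and 0.34 (SE 0.22) for TPM2. They rested on single libraries, being 0.05 for TPM4 without ESV 3, 0.02 without control 3, -0.06 for TPM3 without control 2, and 0.14 for TPM2 without ESV 3 or 0.56 without ESV 2.

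In both groups the order of the mean levels was TPM1, TPM4, TPM3 and TPM2. In the controls neither TPM1 and TPM4 nor TPM4 and TPM3 were separated beyond their spread, and TPM2 lay below the other 3 in each library. In the ESV samples TPM1 and TPM4 overlapped, while TPM4 lay above TPM3 and TPM3 above TPM2 without overlap. Compared within each library, TPM4 lay above TPM3 in every library, and TPM1 above TPM4 in every library except control 3. TPM1 made up 31.9 to 34.8% of the family's FPKM in the controls and 35.6 to 44.2% in the ESV samples. Of all 13451 genes tested, 7.75% lay higher in every ESV library than in every control, and 8.68% lay lower, and none of the 4 gene sums did either. With limma on all genes, 0% of genes passed an adjusted p of 0.05, 933 had an unadjusted p under 0.05, and limma voom on the recovered reads called 2.

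**Figure D1:**
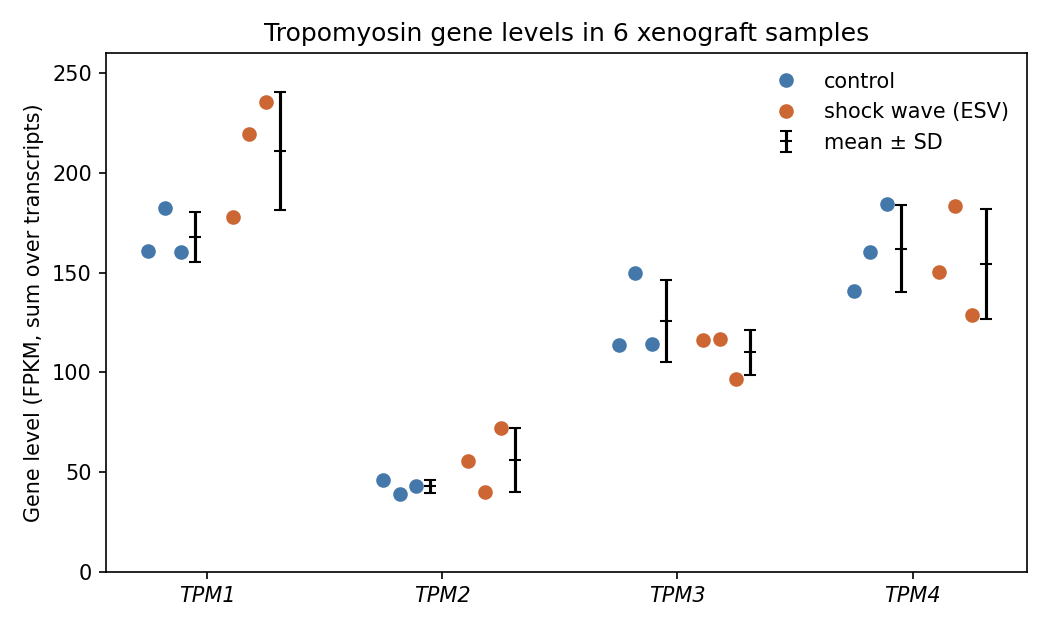
Summed FPKM (vertical axis) of the 4 tropomyosin genes in each library, with controls in blue and ESV in orange and bars for the mean ± SD of 3 samples. The groups overlap in all 4 genes, and TPM2, at 39.2 to 72.1 FPKM, is the lowest gene in each of the 6 libraries.

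Beneath these similar sums, the transcripts of TPM4 differed widely. TPM4-219, which starts with the downstream exon shown above and encodes a short form of 248 residues, was at 12.4, 115 and 9.94 FPKM in controls 1 to 3. In ESV 1 to 3 it was at 129, 162 and 115 FPKM, above each control, although ESV 3 and control 2 were nearly level. Its share of the gene was 8.82, 71.7 and 5.39% in the controls and 85.6, 88.1 and 89.2% in the ESV samples. Control 2 thus stood with the ESV samples, and controls 1 and 3 stood far below them.

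Of the long forms of TPM4, only TPM4-202 showed the reverse order without overlap. TPM4-202, which starts with the upstream exon and encodes 284 residues, was at 27.6, 38.6 and 53.1 FPKM in the controls and 0.690, 0.997 and 0.482 FPKM in the ESV samples, which is 2042, 3038 and 3637 reads against 54, 78 and 40. Each control, control 2 included, lay far above each ESV sample, with a log2 difference of -4.53 (SE 0.29). TPM4-222 has the same coding exons and holds 97.8% of the bases of TPM4-202, of which 27 bases belong to TPM4-202 alone. It was at 2.97, 2.37 and 76.1 FPKM in the controls and 15.5, 14.8 and 9.82 FPKM in the ESV samples. Control 3 was high and the other controls lay below each ESV sample, so the transcripts with the same coding exons did not move in parallel.

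Summed over both long-form transcripts, the long-form share of TPM4 was 21.7, 25.6 and 70.0% in the controls and 10.8, 8.62 and 7.99% in the ESV samples (39.1 ± 26.8% and 9.13 ± 1.46%, SD, n = 3 each), a difference of -30.0 percentage points, or -14.5 without control 3. In FPKM the same sum was 30.6, 41.0 and 129 and then 16.2, 15.8 and 10.3. Each ESV library lay below each control. Summed over 4 transcripts, the short-form share was 16.0, 72.2 and 7.42% and then 86.5, 88.7 and 90.0%, above each control. Reads in place of FPKM gave the same order of the groups for both forms.

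What was left of TPM4 in controls 1 and 3 was mostly a transcript without a coding sequence. TPM4-212, annotated as a processed transcript, was at 69.6, 0.416 and 38.0 FPKM in the controls and 0.837, 0.418 and 0.419 FPKM in the ESV samples. Control 2 was at the level of the ESV samples. It has 703 bases of its own among 2121, and 66.9% of its bases lie in exons of TPM4-219. TPM4-213, a transcript with a retained intron, reached 12.9 FPKM in control 1 and at most 0.563 FPKM in the other 5 libraries. The short-form transcript TPM4-201 was at 9.94, 0.777 and 3.70 FPKM in the controls and 1.06 to 1.33 FPKM in the ESV samples, which lay within the range of the controls.

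**Figure D2:**
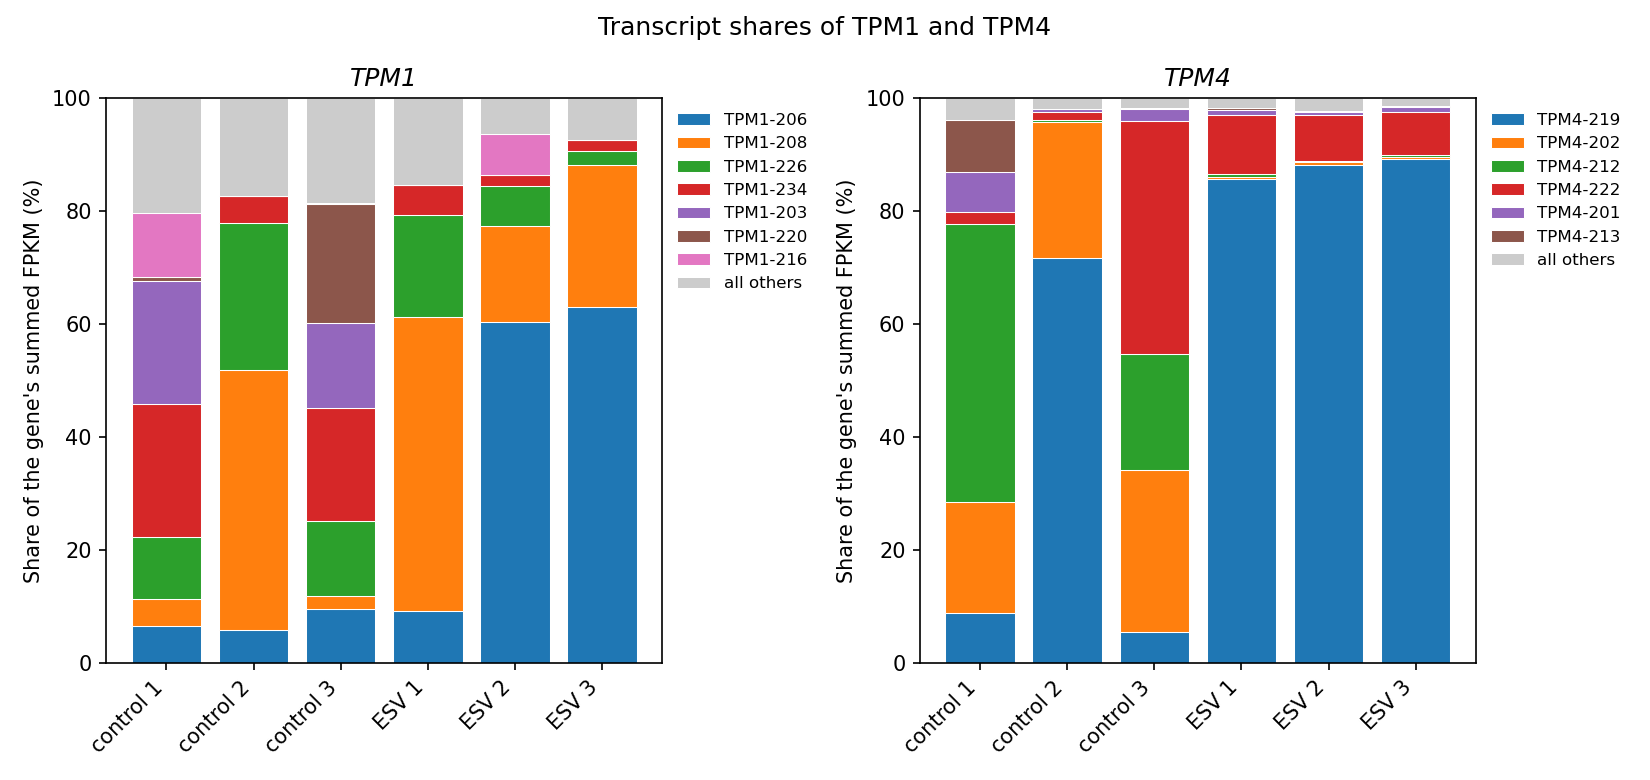
Share of each gene's summed FPKM (vertical axis, %) taken by each transcript of TPM1 (left) and TPM4 (right) in the 6 libraries, with transcripts that never reach 5% pooled in grey. In TPM4, TPM4-219 fills 85.6 to 89.2% of the 3 ESV bars and 71.7% of control 2, but 8.82 and 5.39% of controls 1 and 3.

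TPM1 also differed in its transcripts, with control 2 and ESV 1 alike and ESV 2 and ESV 3 alike. TPM1-206, which encodes a long form of 284 residues and ends with last exon iii, was at 10.6, 10.4 and 15.3 FPKM in the controls and 16.3, 132 and 148 FPKM in the ESV samples. ESV 1 lay just above control 3, whereas ESV 2 and ESV 3 were far above the rest. Its share was 6.59, 5.73 and 9.52% and then 9.18, 60.3 and 63.0%, so that by share ESV 1 was inside the range of the controls. Without ESV 1 the difference in mean share was 54.4 percentage points, and with all libraries 36.9.

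The short form TPM1-208, of 248 residues and with the same last exon, was at 7.44, 84.2 and 3.58 FPKM in the controls and 92.8, 37.4 and 59.1 FPKM in the ESV samples. Controls 1 and 3 were low, and control 2 lay inside the range of the ESV samples. TPM1-203, a short form of 245 residues with last exon ii, was at 34.8, 0 and 24.1 FPKM in the controls. It was at 0 reads in each ESV sample, which sets no upper limit on its level, as its reads in shared exons may be placed elsewhere. TPM1-220, a long form with internal exon B, was at 1.31, 0 and 33.8 FPKM in the controls and at 0 in the ESV samples. Both were thus seen in controls 1 and 3 and in none of control 2 and the ESV libraries, although neither has a base of its own.

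TPM1-216, a short form of 248 residues with 1088 bases of its own, was at 18.2 FPKM in control 1, at 16.0 FPKM in ESV 2 and at most at 0.231 FPKM elsewhere. TPM1-226, which encodes 275 residues and reads on past its last shared exon, was at 17.7, 47.5 and 21.4 FPKM in the controls and 32.1, 15.6 and 6.00 FPKM in the ESV samples, with overlap. The smaller coding transcripts TPM1-202, TPM1-204 and TPM1-218 stayed under 8 FPKM and overlapped between the groups.

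Taken by form, the long-form share of TPM1 was 9.86, 7.25 and 32.1% in the controls and 11.4, 60.8 and 64.3% in the ESV samples. The short-form share was 38.2, 47.9 and 21.8% and then 55.9, 25.5 and 26.7%. Both overlapped, and ESV 2 and ESV 3 had the long form in excess while the other libraries except control 3 had the short form in excess. These classes by length leave out TPM1-226, which starts with the downstream exon. Classed by first coding exon, control 3 had 35.2% with the downstream and 32.4% with the upstream exon, so its exception did not hold. The long-form share was 16.4 ± 13.6% in the controls and 45.5 ± 29.6% in the ESV samples (SD, n = 3 each), against 39.1% and 9.13% for TPM4, so the mean long-form shares of the genes differed in opposite directions, although the TPM1 groups overlapped. Without ESV 1 the TPM1 difference was 46.2 percentage points in place of 29.1.

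The exon choices of TPM1 were summed from the same transcript levels, without counting reads on exons, so they restate those levels by exon. Among coding transcripts, last exon iii was carried by 20.6, 63.9 and 48.8% of the FPKM with any of the listed last exons in the controls and by 72.8, 83.5 and 94.2% in the ESV samples, which lay above each control. Last exon ii made up 37.2, 2.14 and 28.9% and then 3.43, 0.474 and 1.67%, high in controls 1 and 3. Internal exon A made up 77.7, 97.9 and 62.3% of the FPKM with exon A or B in the controls and 95.3, 90.9 and 98.2% in the ESV samples, and the groups overlapped through control 2.

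In TPM1, 5 transcripts with a retained intron passed the filter on low values. Of these, 3 lay lower in the ESV samples without overlap, a description only, as the gene was chosen on this contrast. Summed over all 9 TPM1 transcripts with a retained intron, their share was 38.2, 15.4 and 31.3% in the controls. It was 12.0, 5.66 and 5.48% in the ESV samples, each below each control. The largest of them, TPM1-234, was at 38.1, 8.73 and 32.2 FPKM and then 9.39, 4.31 and 4.34 FPKM, and overlapped only where ESV 1 exceeded control 2. The smaller TPM1-215, TPM1-222 and TPM1-228, at 2.85 to 8.0 FPKM in the controls, lay lower in each ESV sample, at 0.482 to 4.66 FPKM. TPM1-217, the other tested transcript of this kind, was at 3.29, 1.40 and 3.55 FPKM in the controls and 1.24, 1.28 and 2.81 FPKM in the ESV samples, with overlap. TPM1-210, annotated as a target of nonsense-mediated decay, was at 1.35 to 1.74 FPKM in the controls and at most 0.964 FPKM in the ESV samples. Over all genes, 5224 transcripts with a retained intron passed the filter on low values, of which 8.0% lay lower without overlap and 5.88% higher, with a median log2 difference of -0.03.

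Without the transcripts that lack a coding sequence, the summed level of TPM1 was 99.5, 154 and 110 FPKM in the controls and 157, 207 and 223 FPKM in the ESV samples. These groups did not overlap, although ESV 1 and control 2 were nearly level, and the log2 difference was 0.69 in place of 0.32. The same sum for TPM4 was 56.7, 159 and 145 FPKM and then 149, 182 and 128 FPKM, which overlapped, with control 1 low. Its log2 difference was 0.46 in place of -0.08.

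**Figure D3:**
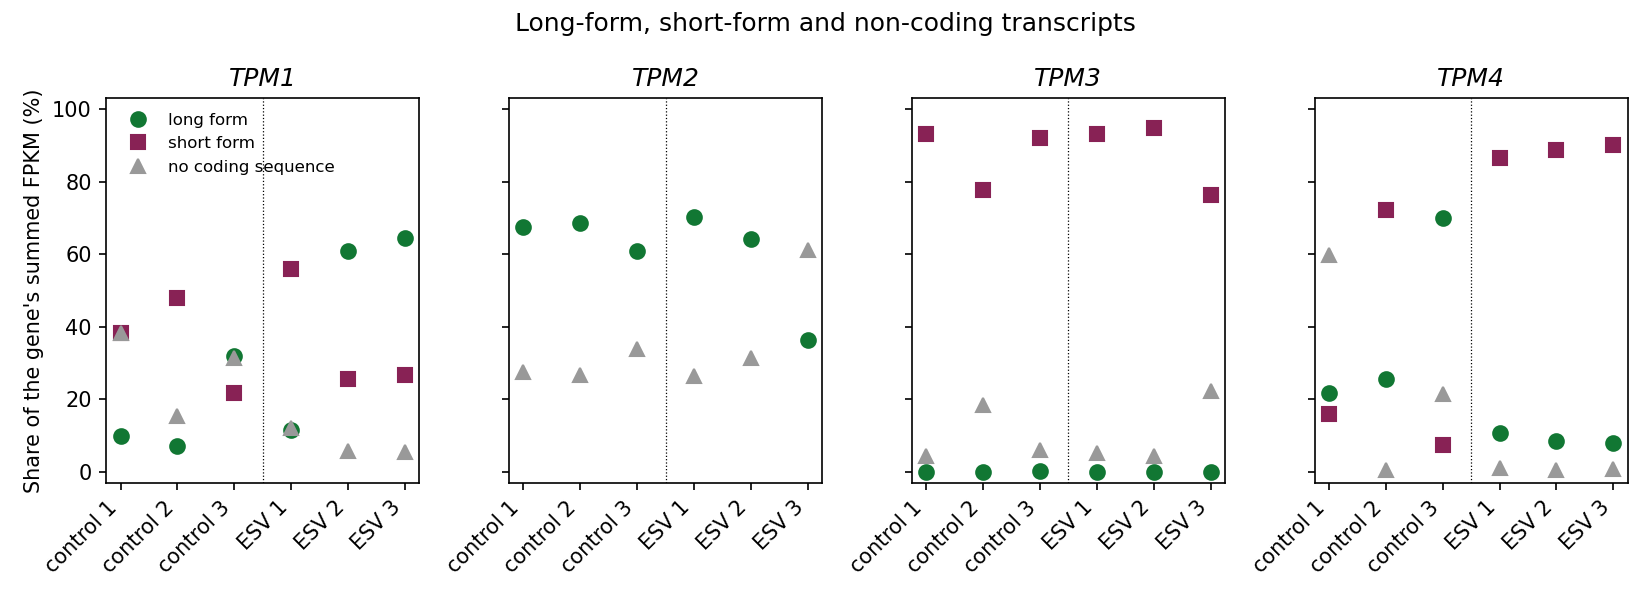
Share of each gene's summed FPKM (vertical axis, %) in long-form, short-form and non-coding transcripts, 1 point for each library, with a dotted line between controls and ESV. Long-form shares of TPM4 are 21.7 to 70.0% in the controls and 7.99 to 10.8% in ESV, while those of TPM1 are highest in ESV 2 and ESV 3.

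Short forms made up most of TPM3 in each library. They held 93.0, 77.7 and 92.0% of the gene in the controls and 93.0, 94.8 and 76.3% in the ESV samples. The only long-form transcript, the kind known from slow muscle, was at most at 0.231 FPKM. TPM3-205, the short form of 248 residues with the highest mean FPKM, was at 52.4, 83.1 and 48.3 FPKM in the controls and 55.4, 53.8 and 39.0 FPKM in the ESV samples. TPM3-212, also of 248 residues, is longer and holds 95.5% of the bases of TPM3-205. By reads it led in 5 of the 6 libraries, and in FPKM it was at 42.5, 30.4 and 49.4 FPKM and then 41.1, 47.3 and 31.1 FPKM. Both overlapped between the groups.

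Control 2 and ESV 3 stood apart from the other libraries of TPM3. In them TPM3-215, a processed transcript without a coding sequence, was at 23.7 and 19.1 FPKM, against 3.29 to 3.83 FPKM in the other 4. In the same libraries TPM3-206, a short form with internal exon B, was at 0.0513 and 0 FPKM, which is 6 and 0 reads, against 5.37 to 7.79 FPKM in the others. Summed from the same transcript levels, internal exon A made up 91.0 to 93.4% of the choice between the exons in those 4 libraries. It made up 99.8 and 99.97% in control 2 and ESV 3. TPM3-219, a target of nonsense-mediated decay with no base of its own, was at 2.56, 4.61 and 2.02 FPKM in the controls and 1.73, 0.696 and 0.342 FPKM in the ESV samples, below each control.

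TPM2 has no short-form transcript in the table. Its long forms TPM2-203 and TPM2-201 were at 9.34 to 14.9 FPKM and 8.75 to 14.5 FPKM in the controls, and at 12.8 to 14.9 FPKM and 9.26 to 19.1 FPKM in the ESV samples. The groups overlapped for both. The transcript with a retained intron TPM2-205 was at 11.3, 8.67 and 13.2 FPKM in the controls and 12.4, 10.8 and 42.6 FPKM in the ESV samples, so that ESV 3 alone stood high and had a long-form share of 36.3%, against 60.9 to 70.4% in the other 5 libraries. Internal exons A and B of TPM2 were used to similar extents, with A at 38.1 to 58.7% in the controls and 46.6 to 59.6% in the ESV samples.

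**Figure D4:**
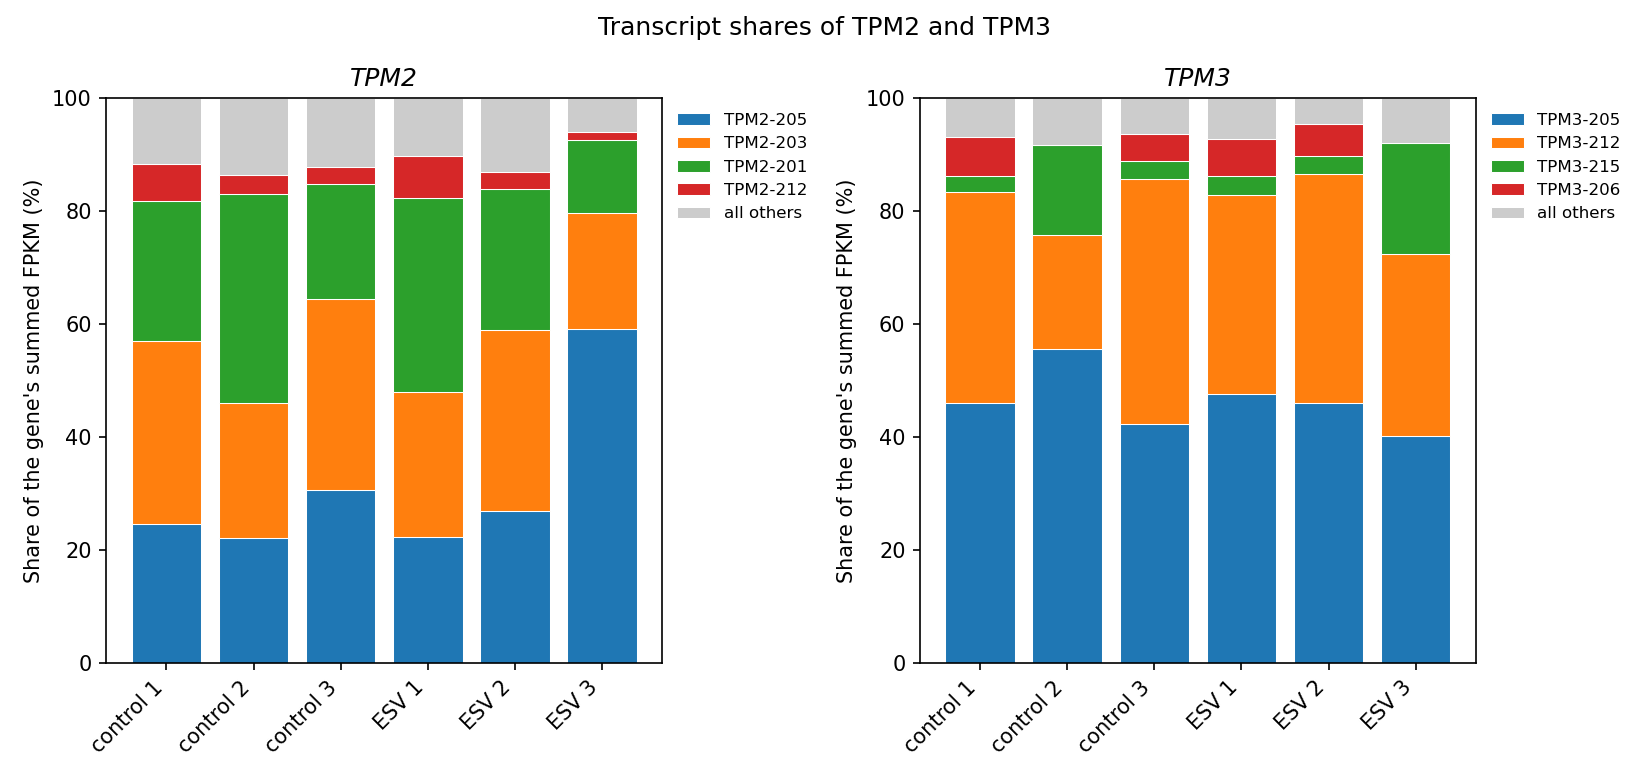
Share of each gene's summed FPKM (vertical axis, %) taken by each transcript of TPM2 (left) and TPM3 (right) in the 6 libraries, with transcripts that never reach 5% pooled in grey. TPM2-205 takes 59.0% of TPM2 in ESV 3 and 22.1 to 30.6% elsewhere, and TPM3-215 takes 15.8% of TPM3 in control 2 and 19.7% in ESV 3.

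Of the 74 transcripts, 30 reached 1 FPKM in at least 3 libraries, namely 12 of TPM1, 6 of TPM2, 7 of TPM3 and 5 of TPM4. Among these 30, the ESV samples lay above the controls without overlap in 2 (TPM1-206 and TPM4-219), below them in 6 and overlapped in 22. Of all 28517 transcripts that passed this filter, 6.87% lay above and 7.34% below without overlap. With limma, 0.203% of them passed an adjusted p of 0.05. Since the genes were chosen on this contrast, nothing is read from these counts. The other 44 transcripts did not pass, and among them were TPM1-203 and TPM4-212, which were high in 2 libraries each. A further 9 transcripts, among them TPM1-233, TPM2-212, TPM3-211 and TPM4-209, reached at most 4.11 FPKM and overlapped between the groups, except TPM2-208, which was at 0.919 to 1.22 FPKM in the controls and 0.455 to 0.769 FPKM in the ESV samples. The 36 transcripts without a mean of 1 FPKM in either group or a share of 5% in any library reached at most 1.68 FPKM.

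The distance between libraries in transcript shares was taken as the percentage of a gene's FPKM that would have to move to another transcript, a measure chosen with the data in view. In TPM4 the mean distance was 61.0 percentage points among the controls, 3.06 among the ESV samples and 64.4 between the groups. Control 2 lay 24.2 to 24.7 from the ESV samples, and controls 1 and 3 lay 81.0 to 85.9 from them. In TPM1 the mean distance was 50.6 among the controls, 42.2 among the ESV samples and 61.1 between the groups. The closest TPM1 pairs were control 2 with ESV 1, at 13.3, and ESV 2 with ESV 3, at 13.7.

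Between the groups the mean distance was 18.3 for TPM2 and 15.3 for TPM3, each no larger than the largest mean distance within a group, 27.6 and 21.2. The median over 3460 genes with more than 1 transcript and a mean of at least 20 FPKM was 9.91 among controls, 11.1 among ESV samples and 11.2 between the groups. A distance between the groups at least as large as that of TPM4 was found in 1.16% of these genes, of TPM1 in 1.53%, of TPM2 in 42.7% and of TPM3 in 48.8%. Among the controls alone, a mean distance at least as large was found in 2.23% of genes for TPM4 and 6.71% for TPM1, and among the ESV samples in 80.9% and 12.7%. The genes were chosen on this contrast, so these ranks are a description.

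Over the family, long forms held 16.8, 15.3 and 41.3% of all FPKM in controls 1 to 3 and 15.1, 31.2 and 35.2% in ESV 1 to 3. Short forms held 41.1, 60.1 and 30.6% and then 67.5, 58.9 and 47.4%. Transcripts without a coding sequence held 35.4, 12.6 and 22.1% and then 8.76, 5.60 and 14.9%. All of these overlapped, and control 3 had the highest long-form share.

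Genes that work with tropomyosin were taken from 9 lists of 78 genes, of which 61 passed the filter. None passed limma's test at an adjusted p of 0.05 (the smallest was 0.530, and 8 had an unadjusted p under 0.05), 28 had a positive and 33 a negative log2 difference, and the median was -0.03 against -0.01 over all genes. The ESV samples lay above the controls without overlap in 4 and below in 8 of the 61, beside the 7.75% and 8.68% over all genes. The actins ACTB and ACTG1, the filament on which tropomyosin lies, were at 845 to 1065 FPKM and 854 to 875 FPKM in the controls and at 916 to 992 FPKM and 758 to 920 FPKM in the ESV samples. The ranges overlapped for both.

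TMOD3, a tropomodulin that caps the pointed end of filaments coated with tropomyosin, was at 31.2, 51.8 and 31.6 FPKM in the controls and 25.5, 31.3 and 28.6 FPKM in the ESV samples. Control 2 was the highest library, and ESV 2 lay inside the range of the controls. TMOD2 stayed under 1 FPKM. The troponins, which act with tropomyosin in striated muscle, were low, with TNNT1 at 5.14 to 9.87 FPKM and TNNI3 at 3.57 to 6.36 FPKM in the controls. TNNI3 was at 7.33 to 8.57 FPKM in the ESV samples, with a log2 difference of 0.59 (SE 0.21) and limma's adjusted p of 0.648, and TNNT1 at 5.81 to 10.2 FPKM. Neither troponin passed the test.

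TAGLN2 and CNN2, actin binders of the transgelin and calponin families, were at 616 to 653 FPKM and 42.3 to 56.4 FPKM in the controls and at 592 to 798 FPKM and 32.05 to 51.1 FPKM in the ESV samples. The myosin light chains MYL12B and MYL12A were at 474 to 510 FPKM and 349 to 366 FPKM and then at 507 to 675 FPKM and 331 to 413 FPKM. CFL1, the cofilin that severs actin filaments, had a log2 difference of 0.29 (SE 0.17), and ARPC3, a subunit of the branching Arp2/3 complex, 0.29 (SE 0.15), both with limma's adjusted p of 0.648. The cross-linker ACTN4 had -0.22 (SE 0.12), with the same adjusted p. None of these passed.

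Of the targets of SRF, a transcription factor that responds to actin, ZYX and FHL2 had log2 differences of 0.05 (SE 0.13) and 0.22 (SE 0.24). The splicing regulators PTBP1, known to repress tropomyosin exons, and RBM4 were among 13 listed, of which 5 had a positive and 8 a negative log2 difference and none passed. PTBP1 was at 58.6, 51.1 and 56.0 FPKM in the controls and 26.7, 56.2 and 25.6 FPKM in the ESV samples, with ESV 1 and ESV 3 low and a log2 difference of -0.69 (SE 0.30). RBM4 was at 28.4 to 43.9 FPKM in the controls and 38.1 to 40.2 FPKM in the ESV samples.

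Some partners were singled out after their values had been seen, and no rule set the choice. MYH14, a non-muscle myosin heavy chain, was at 33.6, 127 and 114 FPKM in the controls and 15.1, 6.31 and 11.03 FPKM in the ESV samples, a log2 difference of -2.83 (SE 0.54) with limma's adjusted p of 0.530. MBNL3, a splicing regulator of the muscleblind family, was at 13.3, 10.1 and 11.4 FPKM and then 0.963, 10.01 and 0.740 FPKM, low in ESV 1 and ESV 3 as PTBP1 was. MYL6, a myosin light chain, was at 221 to 269 FPKM in the controls and 341 to 417 FPKM in the ESV samples, with an adjusted p of 0.624 by limma. TAGLN, a smooth muscle marker, was at 1.68 to 2.32 FPKM and then 0.164 to 0.986 FPKM, with limma's adjusted p of 0.648. The other tested markers of smooth muscle, ACTA2 and SMTN, had positive log2 differences of 0.28 and 0.06, and neither passed. Among the partners not singled out, the actin nucleator DIAPH1 and the SRF cofactor MKL2 also lay below the controls without overlap. Their log2 differences were -2.36 (SE 0.79) and -1.42 (SE 0.52), both with limma's adjusted p of 0.648.

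**Figure D5:**
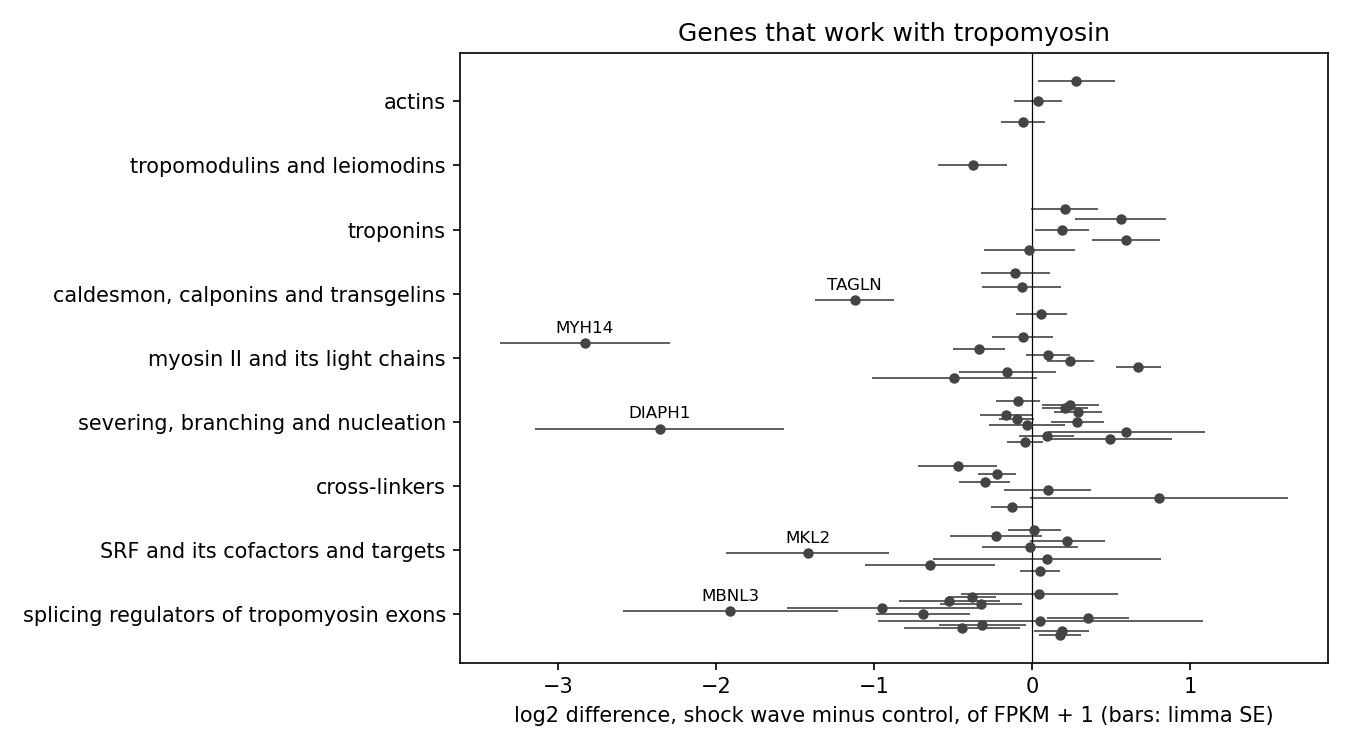
Log2 difference of ESV minus control (horizontal axis, on log2(FPKM + 1), bars for the limma SE) of the 61 tested partner genes, 1 point each, grouped by list. No gene passes limma's test at an adjusted p of 0.05, and the lowest point is MYH14 at -2.83.

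The listed human pseudogenes of TPM3 and the antisense gene of TPM1 were at low levels. Whether reads were misplaced between them and the members was not tested. Reads from tropomyosin genes of the host could not be assessed, as the levels are of human transcripts and removal of host reads is not stated. The pseudogene TPM3P9 was at 2.77 to 4.09 FPKM in its main transcript, TPM3P6 at 0.967 to 1.88 FPKM, and the antisense gene TPM1-AS at 0 to 3.44 FPKM and 1.81 to 3.17 FPKM in its transcripts. The counting is not stated to use strand, so reads of TPM1 and its antisense gene may not be told apart. By the smallest root mean square difference of centred log2(FPKM + 1) over the 6 libraries among 8962 genes with a mean of at least 5 FPKM, the patterns most like TPM1 were CLDN23 and SNX7 (0.0397 and 0.0476). Those most like TPM2 were CLDN3 and PPCDC (0.0342 and 0.0471), like TPM3 PPAT and LBR (0.0348 and 0.0408), and like TPM4 DROSHA and PLXNB2 (0.0380 and 0.0433).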

How the data were processed

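Per the labels' protocols, Trizol RNA went into SMARTER mRNA-seq libraries. The authors deposited 1 table of normalized transcript levels on hg38 (per the submitters' processing notes), whose unit is not named there. The deposited values were taken as FPKM because multiplying them by GENCODE 29 transcript length gave whole multiples of a fixed step in each library, taken as a read. Not given in the sources used here are the aligner, the counter and any removal of host reads. Gene levels are sums over annotated transcripts, and 15031 assembled rows without a gene were left out.

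Genes and transcripts that reached 1 FPKM in 3 or more samples were fitted with limma 3.58.1 (R 4.3.3, trend) on log2(FPKM + 1), with Benjamini-Hochberg adjusted p over all of them and a threshold of 0.05. The fit was tested on simulated gene levels, which did not cover the fit of transcripts or the placement of shared reads. Long forms encode at least 280 residues and short forms 240 to 260. All members were reported. Transcripts were named at a mean of 1 FPKM in either group or a share of 5% in any sample, and partners by the 2 highest mean levels of each list, of which 1 gene is not reported here. The members and lists were chosen with earlier results of these data known. Alternatives changed the normalization, the filter, the pseudocount, the model and the samples left out, 1 at a time.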

Additional observations from a re-analysis of the deposited data

How the results depend on the processing

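For the main gene differences, leading transcript shares and form shares, the filter, the limma trend and the replicate block cannot move a difference of means. With 3 samples per group, leaving out 1 library also cannot shift a difference by as much as 1 SD of the replicates. Such values were among the 137 under the other alternatives. Of the 137, 134 stayed within 1 SD, a count that therefore says little about stability. The exceptions were the TPM1 gene difference, 0.11 after quantile normalization and 0.69 over transcripts with a coding sequence, and the TPM4 gene difference, 0.46 over those transcripts. The partner count was 1 without ESV replicate 2 (MBNL3). It was 0 under each other alternative, in fits that called few or no genes at all. Leaving out 1 library gave 0.24 to 0.44 for the TPM1 gene difference and 0 to 1 partner calls. The sign of 6 results changed under some alternative, among them TPM4, whose gene difference ran from -0.21 to 0.05 with 1 library left out.

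With 1 library left out, the share difference of TPM4-219 ran from 47.4 to 80.5 percentage points, lowest without control replicate 3 and highest without control replicate 2. The TPM4 long-form difference ran from -38.7 to -14.5. The long-form difference of TPM1 ran from 19.7 to 46.2. Same-numbered samples did not deviate together (r of -0.012, -0.006 and 0.027), and not every sample correlated best with its own number. With equal groups the replicate block cannot change a share difference (59.0 for TPM4-219), and its 0 partner calls stand beside 0 calls over all genes, so neither bears on stability. Classes by the first coding exon were added after seeing the data. The number of transcripts without a base of their own limits how far any of these shares can be read, as does the group size of 3.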
